A study of Homo sapiens with 16 samples.

Results

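The epidermal growth factor (EGF) family ligands were followed through an estrogen time course in 2 human cancer cell lines. The genes TGFA, AREG, EREG, HBEGF, BTC, EGF and NRG1 were taken by name, 7 of the 26364 genes counted, and all 7 had a row in the count table of each line. Ishikawa is a line from an endometrial adenocarcinoma and T-47D one from a breast carcinoma. Both were kept in hormone-depleted medium and then given 10 nM 17β-estradiol (E2) for 2, 4 or 8 h, or vehicle (0 h). Each of the 4 time points had 2 libraries per line, 16 in all, made from poly(A) RNA with a directional kit. The labels do not say whether the replicates were separate cultures, so every p-value measures only the spread between these libraries.

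EGF-family ligands are made as membrane-anchored precursors and are cut free by proteases such as ADAM17, after which they bind ERBB receptors on the same or on neighbouring cells. TGFA (transforming growth factor alpha), AREG (amphiregulin) and EGF bind EGFR. HBEGF (heparin-binding EGF-like growth factor), BTC (betacellulin) and EREG (epiregulin) bind EGFR and ERBB4, and NRG1 (neuregulin 1) binds ERBB3 and ERBB4. ERBB2 has no known ligand of its own and pairs with the other receptors. Bound receptors signal through RAS and ERK kinases, among other routes, and both the breast and the endometrium respond to this signal alongside estrogen.

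The libraries held 41177912 to 58918642 counts in Ishikawa cells and 41223813 to 64148903 in T-47D, so that 3 counts in a library corresponded to between 0.0479 and 0.0742 CPM (counts scaled to library size). CPM values are on one TMM scaling of the 16 libraries. Of the counts from 1 to 10, 71.2% to 74.6% were even, so a count need not be 1 fragment. All 5 epithelial markers exceeded 1 CPM in each line. All 5 endometrial markers exceeded 1 CPM in Ishikawa cells and none did in T-47D, where EMX2 and SOX17 were at 0. Of the 5 luminal breast markers, 5 exceeded 1 CPM in T-47D and 4 in Ishikawa cells, with GATA3 below it. Leukocyte markers summed to 0.704 to 1.34 CPM in Ishikawa libraries and 1.43 to 2.21 in T-47D libraries, endothelial markers to 5.06 to 8.36 and 0.0408 to 0.214, and fibroblast markers to 153 to 276 and 77.6 to 103. In Ishikawa cells, both 4 h libraries and the first 8 h library lay nearest to a library of the other of these 2 times over all genes tested, so the 4 h and 8 h labels separated weakly. The labels were kept as given, and only 2 genes of 15787 passed an adjusted p of 0.05 between those times in the quasi-likelihood test of edgeR (554 at an unadjusted p under 0.05).

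The 250 bases before an annotated start of TGFA, AREG and EREG are shown from the RefSeq table for GRCh38.p14, 5′ to 3′ on the gene's strand. These 3 members rose with E2 in T-47D, EREG on few counts and with the limits given below. Capitals mark the estrogen response half-site (GGTCA), the SP1 motif (GGGCGG), the cAMP response element (TGACGTCA) and the TATA motif (TATAAA), each searched on both strands.

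TGFA, chr2:70553827-70554076, minus strand: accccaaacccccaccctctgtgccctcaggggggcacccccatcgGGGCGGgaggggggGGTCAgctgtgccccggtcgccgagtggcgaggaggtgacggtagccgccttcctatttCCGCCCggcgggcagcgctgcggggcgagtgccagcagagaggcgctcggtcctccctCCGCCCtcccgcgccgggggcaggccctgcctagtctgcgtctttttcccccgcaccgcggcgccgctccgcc
AREG, chr4:74444886-74445135, plus strand: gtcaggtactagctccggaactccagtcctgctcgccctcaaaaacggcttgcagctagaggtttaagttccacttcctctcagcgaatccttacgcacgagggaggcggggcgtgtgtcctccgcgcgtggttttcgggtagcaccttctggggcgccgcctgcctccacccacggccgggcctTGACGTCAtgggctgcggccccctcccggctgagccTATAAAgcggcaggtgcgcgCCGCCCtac
EREG, chr4:74364895-74365144, plus strand: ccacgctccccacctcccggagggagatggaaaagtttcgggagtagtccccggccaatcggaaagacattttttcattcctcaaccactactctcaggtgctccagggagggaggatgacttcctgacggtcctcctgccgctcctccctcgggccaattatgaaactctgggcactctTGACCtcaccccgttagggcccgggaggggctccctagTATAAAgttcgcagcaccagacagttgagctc

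The TGFA window held 1 half-site, which begins at position -190 from the start, and 3 SP1 motifs. A second annotated start of TGFA, with the window chr2:70553447-70553696, held none of the motifs searched. The AREG window held a cAMP response element at position -65, an SP1 motif and a TATA motif, and the EREG window held a half-site on the opposite strand at position -70 and a TATA motif. HBEGF, whose window is not shown, held 1 half-site and 5 SP1 motifs, EGF held 1 AP-1 motif (TGANTCA), and BTC held none of the motifs searched. The full estrogen response element, which is the half-site and its inverted copy with 3 bases of any kind between them, was in none of these windows. NRG1 was not searched for motifs. Of 35116 promoter windows of the same length, 0.0399% held the full element, 32.6% the half-site, 42.6% the SP1 motif, 10.7% the TATA motif, 6.57% the AP-1 motif and 1.65% the cAMP response element. A letter match is a description of the sequence and was not tested as a binding site.

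On GRCh37, the build of the counts, TGFA lies on the minus strand at chr2:70674416-70781325 and HBEGF on the minus strand at chr5:139712428-139726188. EREG at chr4:75230862-75254466 and AREG at chr4:75310853-75320722 are neighbours on the plus strand, with BTC on the minus strand at chr4:75669969-75719733 and EGF further along at chr4:110834039-110934922. NRG1 lies on chromosome 8. No member shares exon sequence with a gene on the opposite strand. NRG1 overlaps exons of ENSG00000286131 and RP11-1002K11.1 on its own strand, neither of which had a row in the tables. The AREG transcript of 1234 bases matched a second place, chr4:75480629-75490481, at 1233 bases. That place is annotated as AREGB on GRCh37 and had no row in the count tables. How reads with several alignments were counted is not given in the sources used here, so the level of AREG is uncertain, and a change in it is a change of AREG and AREGB together if their reads were shared.

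Before E2, the breast line held more AREG, EREG, EGF and HBEGF transcript, and the endometrial line more TGFA, BTC and NRG1. Levels of different genes were compared per length, as RPKM (CPM per kilobase of the canonical transcript). In Ishikawa cells in vehicle, TGFA stood at 37.6 ± 0.0355 RPKM (SD, n = 2), followed by NRG1 at 2.79 ± 0.290, BTC at 1.77 ± 0.203, HBEGF at 0.717 ± 0.186, EGF at 0.566 ± 0.00887 and AREG at 0.204 ± 0.142. HBEGF and EGF differed by less than the SD of HBEGF, and NRG1 and BTC changed places when the length of all exons was used. EREG had 0 counts in all 8 Ishikawa libraries. In T-47D cells in vehicle, TGFA stood at 3.12 ± 0.225 RPKM, AREG at 2.23 ± 0.178, EGF at 1.84 ± 0.00799, HBEGF at 1.29 ± 0.156, BTC at 0.245 ± 0.109 and EREG at 0.0257 ± 0.00606, and NRG1 had 0 counts in both libraries.

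Between the lines in vehicle, 81.9% of the 17090 genes tested over all 16 libraries differed at an adjusted p under 0.05, and so did all 7 ligand genes, so the count of calls does not set the ligands apart. EREG and NRG1 passed the filter for this comparison only through the line that expresses them. TGFA was lower in T-47D by 3.59 on the log2 scale (log2 change -3.59, SE 0.0613, adjusted p = 3.17e-21) and BTC by 2.83 (-2.83, SE 0.30, adjusted p = 2.67e-08). AREG was 10.8-fold higher in T-47D (log2 3.43, SE 0.35), and the difference was 4.41 without the second Ishikawa library of 0 h and 2.88 without the first. EGF was 3.25-fold higher (log2 1.70, SE 0.17) and HBEGF was 1.79-fold higher (log2 0.84, SE 0.21, adjusted p = 0.00124). NRG1 in Ishikawa cells stood at 466 times, and EREG in T-47D at 1.88 times, a floor of 3 counts per library in the other line. The EREG value rests on 6 and 4 counts in T-47D, and a count need not be 1 fragment, so it sets no firm lower bound.

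**Figure D1:**
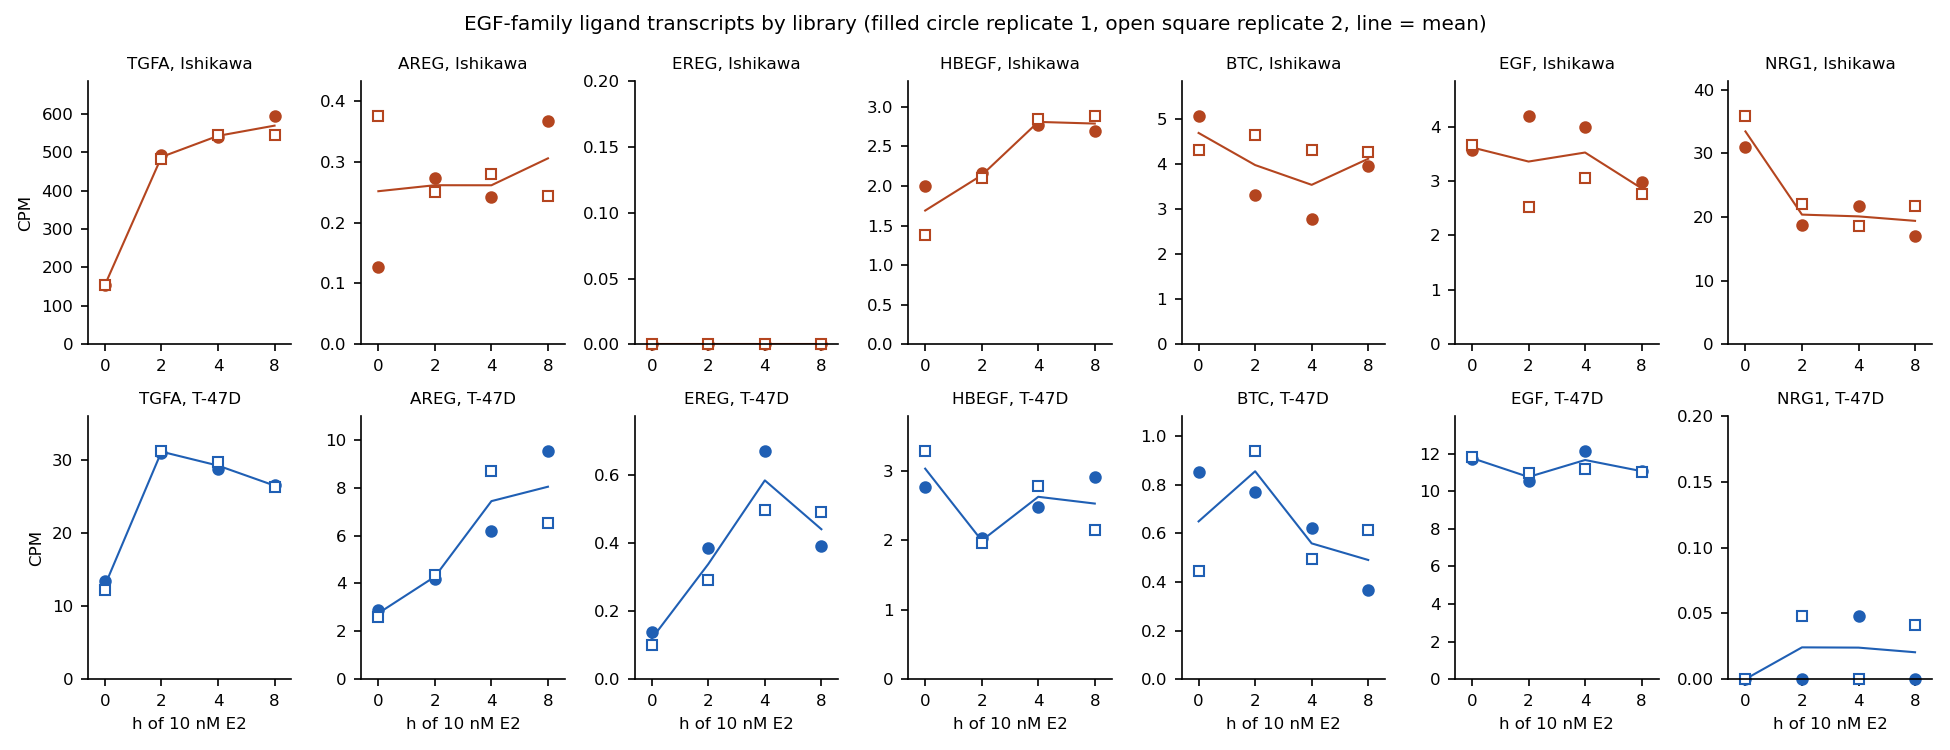
CPM (vertical axis, from 0, with a different scale in each panel) of the 7 ligand genes by hours of 10 nM E2 (horizontal axis, the 4 times evenly spaced), with Ishikawa cells above and T-47D cells below. Circles and squares are the 2 libraries of a time point and lines join their means. TGFA rose in both lines, AREG and, on few counts, EREG rose in T-47D, and NRG1 fell in Ishikawa cells.

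TGFA, an EGFR ligand found in many epithelia, was the one member that rose in both lines, and it had passed the test by 2 h in each. In Ishikawa cells, its 2 libraries stood at 155 and 155 CPM in vehicle, 493 and 483 after 2 h, 541 and 545 after 4 h, and 595 and 544 after 8 h. Every treated library stood above both vehicle libraries, and the ranges after 4 h and 8 h overlapped. In bulk RNA, more transcript per cell and more cells with the transcript cannot be told apart. TGFA was 3.17-fold higher after 2 h (log2 1.67, SE 0.0560, adjusted p = 3.63e-11), 3.53-fold after 4 h (log2 1.82, adjusted p = 1.07e-11) and 3.68-fold after 8 h (log2 1.88, adjusted p = 6.72e-12). The level after 8 h was 0.21 above that after 2 h on the log2 scale (95% interval 0.0958 to 0.327, adjusted p = 0.0574), a step that 2.24% of all genes passed. The step of TGFA passed under DESeq2 (adjusted p = 0.00603) and without either 0 h library or either 4 h library (adjusted p between 0.0435 and 0.0448).

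In T-47D cells, TGFA stood at 13.5 and 12.2 CPM in vehicle, 31.0 and 31.3 after 2 h, 28.7 and 29.7 after 4 h, and 26.6 and 26.3 after 8 h. Again no treated library overlapped the vehicle libraries, and both 8 h libraries lay below both 2 h libraries. The gene was 2.41-fold higher after 2 h (log2 1.27, SE 0.0757, adjusted p = 1.23e-09), 2.27-fold after 4 h (log2 1.18, adjusted p = 2.57e-09) and 2.06-fold after 8 h (log2 1.04, adjusted p = 1.04e-08). From 2 h to 8 h it fell by 0.22 on the log2 scale (95% interval -0.37 to -0.0759, adjusted p = 0.0366), a step that 16.8% of all genes passed. That fall did not pass without the first or the second 2 h library (-0.24 and -0.22, adjusted p = 0.148 and 0.174) or without the first or the second 8 h library (-0.24 and -0.22, adjusted p = 0.0869 and 0.109).

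AREG, whose product also binds EGFR and is a known mediator of mammary duct growth, rose in T-47D, and stood higher after 8 h than after 2 h. Its libraries stood at 2.91 and 2.60 CPM in vehicle, 4.20 and 4.37 after 2 h, 6.18 and 8.71 after 4 h, and 9.56 and 6.53 after 8 h. All treated libraries exceeded both vehicle libraries, the 4 h and 8 h libraries exceeded those of 2 h, and 4 h and 8 h overlapped. The 2 h change was 1.54-fold (log2 0.63, SE 0.20) and did not pass (adjusted p = 0.0623), while AREG was 2.68-fold higher after 4 h (log2 1.42, SE 0.19, adjusted p = 2.95e-05) and 2.92-fold after 8 h (log2 1.54, SE 0.19, adjusted p = 7.29e-06). The 2 h call depended on the fit: it passed under DESeq2 (adjusted p = 0.0448), with no filter on low counts (0.00118), with only the 0 h and 2 h libraries (0.0141) and without any 1 of the 4 libraries of 4 h or 8 h (0.64 in each case, adjusted p between 0.0256 and 0.0277). AREG was higher after 8 h than after 2 h by 0.92 on the log2 scale (SE 0.18, adjusted p = 0.00174). It was higher after 4 h than after 2 h by 0.79 (adjusted p = 0.0180, with 3.40% of all genes called), a step that did not pass without either 2 h library (0.76 and 0.82) or without the second 4 h library (0.53, adjusted p = 0.269).

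In Ishikawa cells AREG had only 6 to 22 counts per library and a mean of 0.252 CPM in vehicle and 0.306 CPM after 8 h. The vehicle libraries, at 0.128 and 0.376 CPM, spanned all 6 treated libraries, and no change was detectable at this depth, with a 95% interval of -0.913 to 1.496 after 8 h.

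EREG, the neighbour of AREG on chromosome 4, was scarce in T-47D, with 6 and 4 counts in vehicle, 18 and 12 after 2 h, 42 and 25 after 4 h, and 19 and 24 after 8 h. Every treated library had more counts than either vehicle library. EREG passed the filter on low counts in this line only through its E2 libraries, so the tests of its rise were not independent of the filter. The fitted changes were 1.48 after 2 h (log2, SE 0.57, adjusted p = 0.123), 2.27 after 4 h (SE 0.52, adjusted p = 0.00393) and 1.86 after 8 h (SE 0.54, adjusted p = 0.0147). The 4 h call was lost without the first 4 h library (2.03, adjusted p = 0.0571), and the 8 h call without the second 0 h library (1.66, adjusted p = 0.0981) or the second 8 h library (1.69, adjusted p = 0.0863). DESeq2 gave no adjusted p for the 2 h and 4 h changes. With a minimum of 10 counts in every library, EREG was not tested. EREG in T-47D stood at 5.54 times the floor in Ishikawa cells after 2 h, 8.16 times after 4 h and 7.53 times after 8 h.

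HBEGF, a ligand also known as the receptor of diphtheria toxin, moved in Ishikawa cells with few counts behind it (66 to 161 per library). It stood at 2.00 and 1.38 CPM in vehicle, 2.17 and 2.11 after 2 h, 2.77 and 2.85 after 4 h, and 2.69 and 2.89 after 8 h. All treated libraries exceeded both vehicle libraries, of which the second was the lowest of the 8. HBEGF rose 1.67-fold after 4 h (log2 0.74, SE 0.22, adjusted p = 0.0370) and 1.65-fold after 8 h (log2 0.72, SE 0.22, adjusted p = 0.0289), and its 2 h change was 0.35 (adjusted p = 0.473). The 4 h call was lost without the second 0 h library (0.50, adjusted p = 0.254), without either 2 h library (0.74 in each case, adjusted p = 0.0558 and 0.0559) or without the first or second 4 h library (0.77 and 0.71, adjusted p = 0.111 and 0.0957), and with only the 0 h and 4 h libraries in the fit (0.73, adjusted p = 0.0546). The 8 h call was lost without the second 0 h library (0.48, adjusted p = 0.242) or the first or second 8 h library (0.78 and 0.66, adjusted p = 0.0564 and 0.117). In T-47D cells HBEGF stood at 2.77 and 3.29 CPM in vehicle, 2.04 and 1.96 after 2 h, 2.47 and 2.78 after 4 h, and 2.91 and 2.14 after 8 h. The 2 h libraries were the lowest pair there, but the change of -0.61 (SE 0.20) did not pass (adjusted p = 0.0662); it passed without the first or the second 8 h library (-0.60 in each case, adjusted p = 0.0489 and 0.0473) and with no filter on low counts (adjusted p = 0.0277). The changes after 4 h and 8 h were -0.21 and -0.26 (adjusted p = 0.472 and 0.347).

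NRG1 was the one member that fell. In Ishikawa cells it stood at 31.0 and 35.9 CPM in vehicle, 18.75 and 21.98 after 2 h, 21.6 and 18.5 after 4 h, and 17.0 and 21.8 after 8 h. Both vehicle libraries exceeded all 6 treated libraries, whose times overlapped each other. NRG1 fell by 0.70 after 2 h (log2 change -0.70, SE 0.12, adjusted p = 0.00212), by 0.73 after 4 h (-0.73, adjusted p = 0.000945) and by 0.79 after 8 h (-0.79, adjusted p = 0.000379), so the level after 8 h was 0.577 times that of vehicle. Without the second 0 h library the 2 h change was -0.59 and did not pass (adjusted p = 0.0743). In T-47D cells NRG1 had 0 to 3 counts per library and was not tested.

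BTC and EGF did not pass at any time in either line. BTC ranged from 2.77 to 5.07 CPM over the 8 Ishikawa libraries and from 0.369 to 0.942 CPM over the T-47D libraries. Its fitted changes were -0.22, -0.40 and -0.19 after 2, 4 and 8 h of E2 in the Ishikawa fit, and 0.38, -0.22 and -0.41 in the T-47D fit. Without the second 4 h library, the BTC change after 4 h in Ishikawa cells was -0.76 and passed (adjusted p = 0.0483). EGF ranged from 2.52 to 4.20 CPM in Ishikawa cells and from 10.5 to 12.2 CPM in T-47D. Its changes were narrowly bounded in T-47D, with a 95% interval of -0.29 to 0.11 on the log2 scale after 8 h, and less so in Ishikawa cells, with -0.82 to 0.14.

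Of the 6 ligands tested in Ishikawa cells (EREG did not pass the filter on low counts), 1 rose and 1 fell after 2 h, where 2.61% of all genes tested rose and 1.74% fell. After 4 h 2 rose and 1 fell, where 7.66% and 6.60% did, and after 8 h 2 rose and 1 fell, where 12.0% and 10.1% did. Of the 6 tested in T-47D (NRG1 did not pass the filter), 1 rose after 2 h, 3 rose after 4 h and 3 rose after 8 h, where 4.90%, 11.1% and 15.4% of all genes tested rose. None fell, where 4.40%, 10.4% and 14.3% of all genes did. EREG, 1 of the 3 called after 4 h and after 8 h, passed the filter only through its E2 libraries. The median log2 change of the 6 was 0.50, 0.58 and 0.48 in T-47D after 2, 4 and 8 h, beside medians of -0.01, -0.0046 and 0.0030 over all genes tested. That median includes EREG and depends on it. Without EREG the middle value was 0.38 after 2 h (BTC), -0.016 after 4 h (EGF) and -0.088 after 8 h (EGF). In Ishikawa cells the median of the 6 ligands tested there was -0.03, 0.01 and 0.05.

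**Figure D2:**
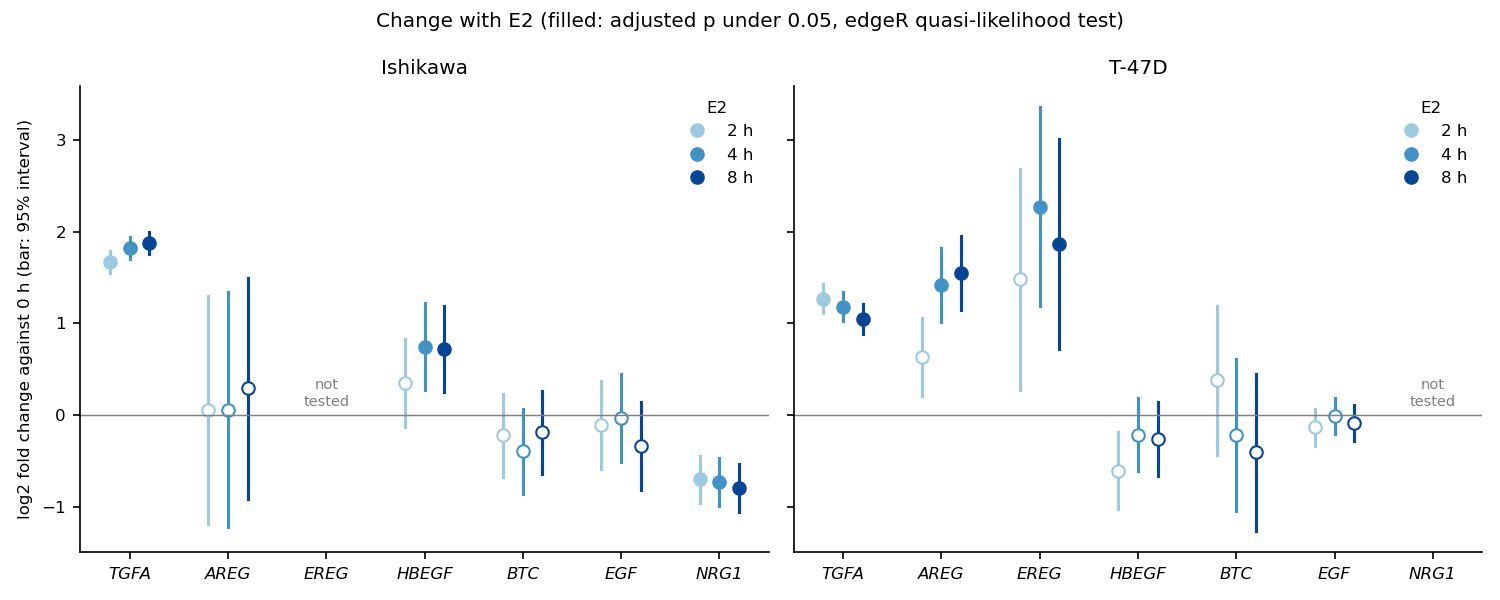
Log2 fold change against vehicle (vertical axis) for each ligand gene (horizontal axis) after 2, 4 and 8 h of E2 in Ishikawa (left) and T-47D cells (right), with 95% intervals as bars. Filled points passed an adjusted p of 0.05 (edgeR); in T-47D cells TGFA went from 1.27 after 2 h to 1.04 after 8 h and AREG from 0.63 to 1.54, with EREG at 1.48 to 2.27 and wider intervals.

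The response of TGFA differed between the lines, and the gap widened with time. Tested as the interaction of line and time over the 16 libraries, the change in T-47D minus that in Ishikawa cells was -0.38 after 2 h (SE 0.0810, adjusted p = 0.00833), -0.63 after 4 h (SE 0.0806, adjusted p = 2.66e-05) and -0.84 after 8 h (SE 0.0812, adjusted p = 4.85e-07). Of the ligands 1, 1 and 2 were called at these times, where 2.67%, 6.03% and 10.0% of the 17090 genes were. The 2 h difference did not pass without the first T-47D library of 0 h (-0.30, adjusted p = 0.134) or of 2 h (-0.37, adjusted p = 0.0516). The step from 2 h to 8 h itself, a contrast added after these values were seen, differed between the lines by -0.46 (SE 0.0762, adjusted p = 0.00142), with 2.88% of all genes called.

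HBEGF was the other ligand with a difference between the lines, of -0.98 after 8 h (SE 0.29, adjusted p = 0.0381), beside -0.94 after 2 h (adjusted p = 0.145) and -0.94 after 4 h (adjusted p = 0.0665). The 8 h call was lost when any 1 of 8 libraries was left out, namely in Ishikawa cells the second 0 h library (-0.74), the second 2 h library (-0.99) and the first and second 8 h libraries (-1.07 and -0.96), and in T-47D the second 0 h library (-0.85), the first and second 2 h libraries (-0.98 in each case) and the second 8 h library (-0.78). Without the first Ishikawa library of 0 h, the 2 h and 4 h differences passed (-1.26 and -1.25, adjusted p = 0.0436 and 0.0239), as did the 4 h difference with no filter (adjusted p = 0.0355). For AREG, the T-47D change exceeded the Ishikawa change by 1.38 after 4 h and 1.24 after 8 h, but the few Ishikawa counts left wide intervals (0.18 to 2.57 and 0.11 to 2.37) and neither passed (adjusted p = 0.197 and 0.174). Without the first Ishikawa library of 0 h both passed (1.93 and 1.78, adjusted p = 0.0480 and 0.0356). No difference could be estimated for EREG and NRG1, each near 0 in one line.

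Summed per length, the 7 ligand transcripts went from 43.6 ± 0.0165 RPKM (SD, n = 2) in vehicle to 123 ± 1.26 after 2 h, 137 ± 0.980 after 4 h and 143 ± 8.49 after 8 h in Ishikawa cells. TGFA made up 86.1% of that sum in vehicle and 96.1%, 96.4% and 96.5% after 2, 4 and 8 h, while the share of NRG1 went from 6.40% to 1.14%. In T-47D cells the sum went from 8.75 ± 0.355 RPKM to 13.96 ± 0.207, 16.41 ± 1.54 and 16.04 ± 1.93. There, TGFA went from 35.6% of the sum in vehicle to 54.2% after 2 h and 40.4 ± 4.57% after 8 h, while AREG stood at 25.5% in vehicle, 24.9% after 2 h and 40.3 ± 5.94% after 8 h. After 8 h the levels of AREG (6.52 ± 1.73 RPKM) and TGFA (6.43 ± 0.0469 RPKM) therefore differed by less than the spread between libraries. EGF went from 21.1% to 10.9% and HBEGF from 14.7% to 6.65% of the T-47D sum, and neither gene passed the test in that line. No test was run on these shares, which depend on the transcript length taken for each gene. In T-47D cells the shares, and the comparison of AREG with TGFA, also depend on how reads that match AREGB were counted, which is not known.

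**Figure D3:**
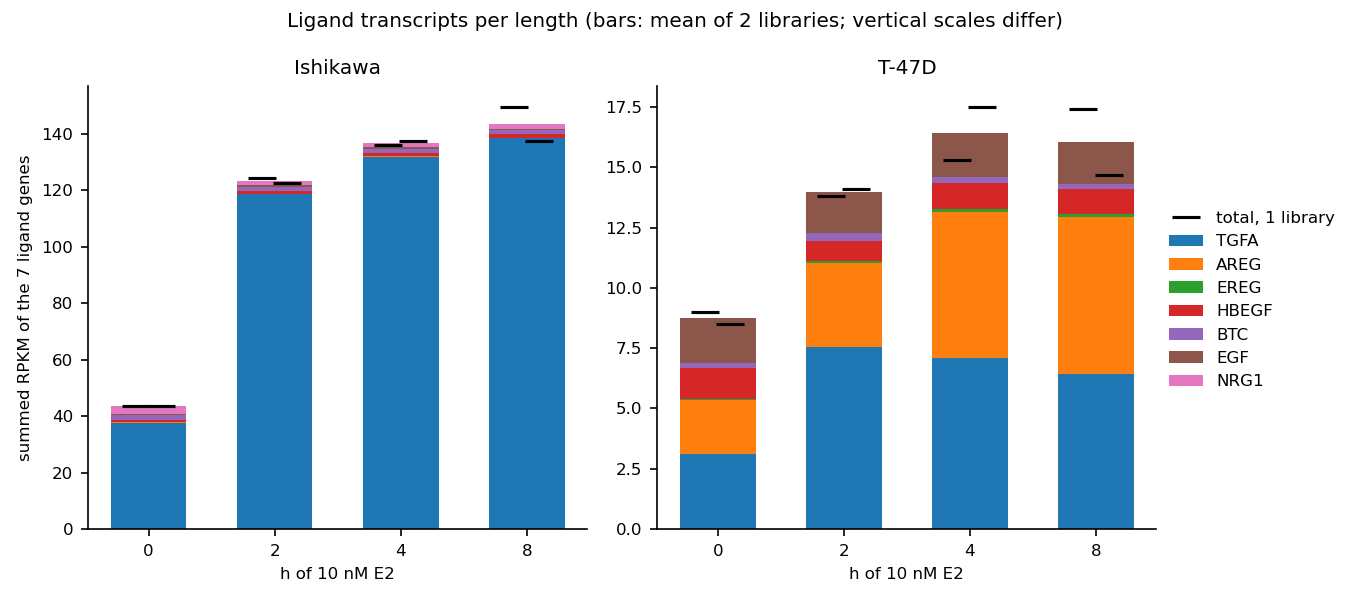
Summed RPKM of the 7 ligand genes (vertical axis, with a different scale in each panel) by hours of E2 (horizontal axis) in Ishikawa (left) and T-47D cells (right), as stacked means of 2 libraries, with a short black line for the total of each library. TGFA filled most of the Ishikawa bars (86.1% to 96.5%), and TGFA and AREG were close to equal in T-47D after 8 h (40.4% and 40.3%). The level of AREG is uncertain because of its near-identical copy AREGB.

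Of the 4 other family ligands, EPGN, NRG2, NRG3 and NRG4, only NRG4 in Ishikawa cells and EPGN and NRG4 in T-47D passed the filter on low counts, and none of these was called at any time. EPGN stood at 2.24 ± 0.0968 RPKM in T-47D in vehicle, about the level of AREG, and at 0.0394 RPKM in Ishikawa cells, and NRG4 at 4.21 ± 0.543 RPKM in Ishikawa cells and 0.430 RPKM in T-47D.

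The counts for the lists that follow can be read against all genes tested, of which 2.61%, 7.66% and 12.0% rose and 1.74%, 6.60% and 10.1% fell after 2, 4 and 8 h in Ishikawa cells. In T-47D cells 4.90%, 11.1% and 15.4% rose and 4.40%, 10.4% and 14.3% fell.

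The ERBB receptor genes fell where they were called, and none of the 4 rose. In vehicle, EGFR stood at 4.66 ± 0.492 RPKM in Ishikawa cells and 3.87 ± 0.169 in T-47D, ERBB2 at 37.0 ± 2.46 and 159 ± 1.38, ERBB3 at 24.4 ± 0.111 and 160 ± 1.30, and ERBB4 at 0.00787 ± 0.00380 and 2.74 ± 0.365. ERBB3, which binds NRG1, fell in both lines. In Ishikawa cells its log2 changes were -0.21, -0.38 and -0.45 after 2, 4 and 8 h (adjusted p = 0.0412, 0.000251 and 4.50e-05). In T-47D they were -0.25, -0.41 and -0.52 (adjusted p after 8 h = 4.89e-09). The ERBB3 call after 2 h in Ishikawa cells was lost with a replicate block (adjusted p = 0.0686). The call was also lost without the second 0 h library (-0.20) or the first or second 2 h library (-0.23 and -0.19). The same held without the second 4 h library or the first 8 h library (-0.21 in each case). With any 1 library left out, the change ranged from -0.23 to -0.19. ERBB2 in T-47D stood at 718 and 727 CPM in vehicle, 631 and 633 after 2 h, 507 and 512 after 4 h, and 378 and 363 after 8 h. Each later time lay below the one before it without overlap, and the change reached -0.51 after 4 h (adjusted p = 8.79e-09) and -0.96 after 8 h (SE 0.0360, adjusted p = 1.39e-12). Of the 6 genes in the list of receptors and receptor inhibitors, 0 rose and 1, 2 and 2 fell after 2, 4 and 8 h in Ishikawa cells, and 0, 0 and 1 rose and 3, 2 and 2 fell in T-47D. The Ishikawa falls of EGFR after 4 h (-0.25, adjusted p = 0.0450) and ERBB2 after 8 h (-0.20, adjusted p = 0.0414) were fragile. Both calls were lost with only the compared times in the fit (adjusted p = 0.0746 and 0.0787). With 1 library left out, the changes ranged from -0.35 to -0.14 and from -0.27 to -0.13, and neither call held throughout.

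Among 15 genes of ligand shedding and transport, 14 passed the filter in each line. In Ishikawa cells 0 of them were called after 2 h, 4 fell after 4 h, and 1 rose and 5 fell after 8 h. In T-47D cells 1 fell after 2 h, 2 fell after 4 h, and 2 rose and 4 fell after 8 h. RHBDF1 (iRhom1), a partner of ADAM17 in its transport, fell by 0.83 after 4 h and 0.85 after 8 h in Ishikawa cells (-0.83 and -0.85, adjusted p = 0.000183 and 0.000129). ADAM17, the protease that cuts TGFA and AREG free, stood at 26.0 ± 1.60 RPKM in Ishikawa cells and 7.81 ± 0.638 in T-47D in vehicle and was not called at any time.

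Of the 18 genes of the RAS-ERK relay, 0 rose and 1 fell after 2 h, 0 rose and 2 fell after 4 h, and 4 rose and 2 fell after 8 h in Ishikawa cells. In T-47D cells 0 rose and 1 fell after 2 h, 2 rose and 4 fell after 4 h, and 1 rose and 2 fell after 8 h. CBLB, a ubiquitin ligase of activated receptors, fell by 0.50 after 2 h in Ishikawa cells (-0.50, adjusted p = 0.00215), and GAB1, an adaptor, by 0.44 after 2 h in T-47D (-0.44, adjusted p = 2.20e-05).

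Of 18 genes known to respond to ERK, 17 were tested in each line. In Ishikawa cells 1 rose and 5 fell after 2 h, 4 rose and 2 fell after 4 h, and 5 rose and 2 fell after 8 h. In T-47D cells 4 rose and 4 fell after 2 h, 3 rose and 3 fell after 4 h, and 8 rose and 2 fell after 8 h. The median log2 change of the list was -0.43, 0.0322 and 0.0229 after 2, 4 and 8 h in Ishikawa cells, beside -0.0023, 0.0047 and -0.0088 over all genes. In T-47D cells it was -0.17, 0.19 and 0.43, beside -0.0094, -0.0046 and 0.0030. SPRY1 and SPRY2 are feedback inhibitors of this relay. SPRY1 in Ishikawa cells stood at 75.9 and 72.6 CPM in vehicle, 29.6 and 30.2 after 2 h, 44.5 and 43.3 after 4 h, and 42.4 and 48.2 after 8 h. All treated libraries lay below both vehicle libraries, lowest after 2 h, with changes of -1.30, -0.75 and -0.72 (adjusted p after 2 h = 1.57e-08), and SPRY2 changed by -1.36 after 2 h (adjusted p = 2.91e-06). The transcription factor gene MYC rose in T-47D from 5.70 and 4.83 CPM in vehicle to 27.3 and 33.0 after 2 h, 29.8 and 31.1 after 4 h, and 32.6 and 36.0 after 8 h (log2 2.51, 2.52 and 2.70, adjusted p after 2 h = 1.64e-11). DUSP4, a phosphatase of ERK, was higher by 1.28 in T-47D after 8 h (adjusted p = 2.53e-07), and DUSP5 fell by 0.74 after 4 h (-0.74, adjusted p = 4.13e-06). Whether any of these genes moved through the ligands was not tested.

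**Figure D4:**
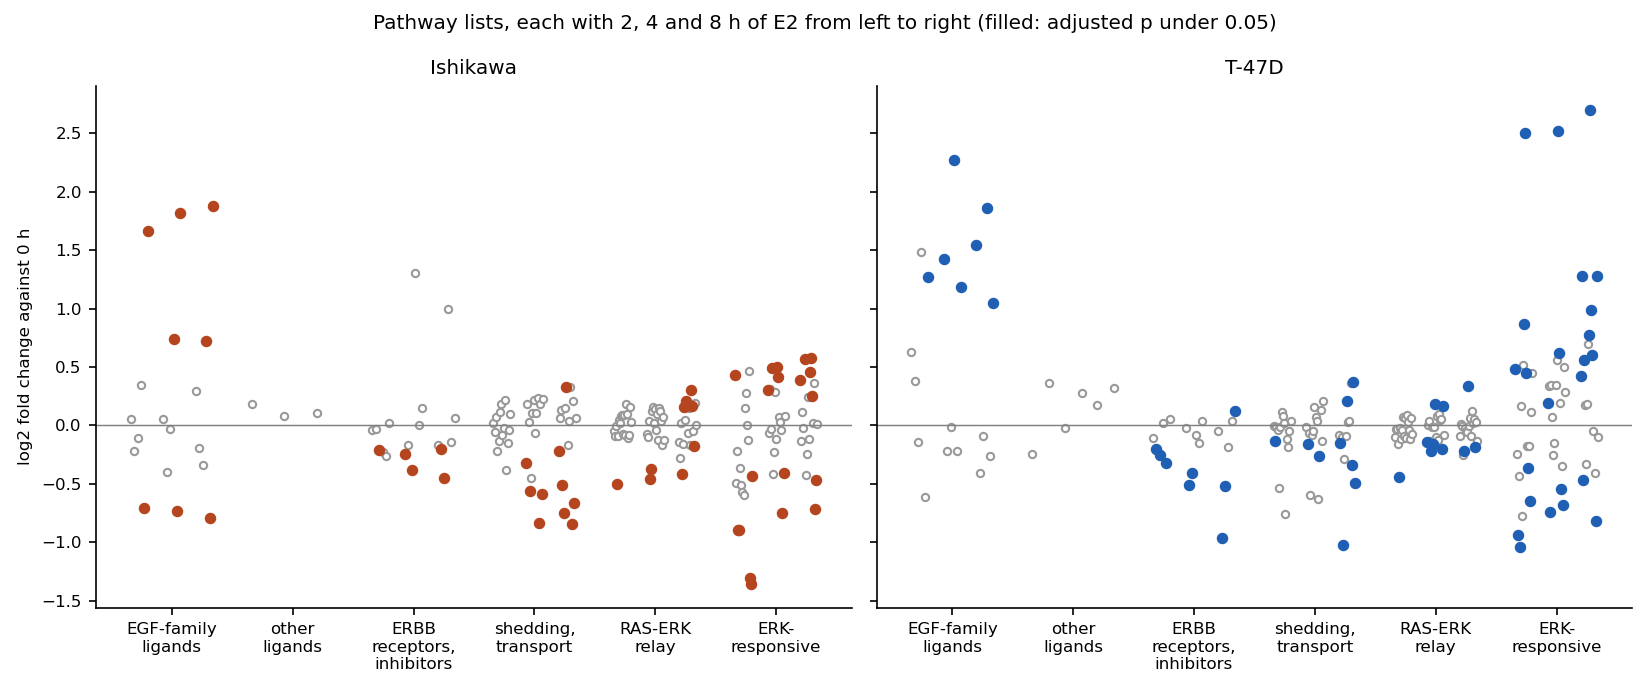
Log2 fold change against vehicle (vertical axis) of each tested gene (points) in the ligand family and 5 pathway lists (horizontal axis), with 2, 4 and 8 h of E2 from left to right within a list, in Ishikawa (left) and T-47D cells (right). Filled points had an adjusted p under 0.05; the called ERBB receptors lay below 0, and the highest points on the right were MYC (2.51 to 2.70).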

How the data were processed

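Poly(A) RNA of Ishikawa and T-47D cells was sequenced. Per the methods and the submitters' processing notes, the authors used HISAT2 (hg19) for alignment, SAMtools for conversion, and featureCounts for reads per UCSC Known Gene, and they deposited raw counts, 1 table per line. Versions, the strand setting and the handling of read pairs and multiple alignments are not given in the sources used here. The authors' notes name DESeq2.

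Counts were analysed with edgeR 4.0.16 in R 4.3.3: filterByExpr, TMM scaling and the quasi-likelihood test, with Benjamini-Hochberg adjustment over all genes and a threshold of 0.05. The filter kept 15787 genes in Ishikawa cells, 15594 in T-47D cells and 17090 over both. Each line was fitted with time as a factor of 4 levels, and differences between lines with group over the 16 libraries. SE is the absolute log2 change over the root of F. The script was tested on simulated data. Replicate pairs were not identical and differed by more than sampling noise (chi-square per gene 3.68 to 11.2). Deviations of same-numbered replicates correlated between -0.11 and 0.0540 (Ishikawa) and between -0.0547 and 0.0596 (T-47D), so no block was used.

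RPKM used canonical GENCODE transcripts on GRCh37, whose symbols matched 22494 of 26364 genes (85.3%). The AREG copy was found by aligning transcripts to the genome with minimap2 2.31. Motifs were searched in RefSeq windows on GRCh38.p14.

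All 7 ligands are reported. Per list, line and time, up to 2 called genes with the largest change and a mean of at least 50 counts may be named, with the 3 genes most like each ligand (1 of these is not reported here); levels of receptors, ADAM17 and the other ligands were added after values were seen. The ligands and lists were chosen with earlier results of these data known. Alternatives were DESeq2 1.42.0, no filter, RLE scaling, a minimum of 10 counts in every library, other thresholds, counts divided by 2, a replicate block, the compared times alone, 4 h and 8 h as 1 group, and each library left out. Alternatives added after seeing the data were exon union lengths and the contrast of the 2 h to 8 h step between lines.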

Additional observations from a re-analysis of the deposited data

Results flagged for a closer look

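Differences between the lines in the response to E2 were flagged by the test of the interaction of line and time. For TGFA, the change in T-47D minus that in Ishikawa cells was -0.38 after 2 h, -0.63 after 4 h and -0.84 after 8 h, and the step from 2 h to 8 h differed by -0.46. With any single library left out, the values ranged from -0.45 to -0.30 after 2 h, -0.70 to -0.55 after 4 h, -0.93 to -0.76 after 8 h and -0.51 to -0.39 for the step. For HBEGF the difference was -0.98 after 8 h, with a range of -1.30 to -0.74. The causes were not tested. Groups of 2 libraries cannot be searched for a single outlying library.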

How the results depend on the processing

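The 1996 alternative values comprised 1826 that kept their direction, their side of the threshold and, for counts and shares, their size, 98 that no longer passed, 22 that newly passed, 14 that changed sign, all with a library left out, and 36 counts or shares that moved. Changes to which DESeq2 gave no adjusted p were left out. The changes of TGFA at each time in each line passed under every alternative run. Of the T-47D ligands at 2 h, 3 were called at an adjusted p of 0.1, 2 under DESeq2, 3 with no filter and 2 with only the compared times. At 0 h, 4 ligands differed between lines with at least 10 counts in every library, since fewer were tested. Of the differences between lines, 2 were called at 4 h at an adjusted p of 0.1 and 2 with no filter, and 1 at 8 h at 0.01. With the replicate block, 1 was called at 8 h (HBEGF had an adjusted p of 0.0554). Pathway calls lost with the block were EGR1 in T-47D cells at 2 h and, in Ishikawa cells, ERBB3 at 2 h, RHBDL2 at 4 h and ERBB2 at 8 h. The labels do not say whether libraries with the same replicate number belong together. For pathway lists, 23 genes were called at 4 h in Ishikawa cells with 4 h and 8 h as 1 group, beside 14, and 11 at 8 h at an adjusted p of 0.01, beside 21. In the main fit, 14.3% of all genes were called at 4 h and 22.1% at 8 h in that line. The share over all genes was not taken for the alternatives, including each library left out, so these counts do not set the lists apart. The TGFA step from 2 h to 8 h in Ishikawa cells was 0.22 with DESeq2 and 0.21 with no filter, and passed in both. With exon union lengths, TGFA made up 87.4% (0 h) and 96.6% (4 h) of the Ishikawa sum and 55.5% (2 h) of the T-47D sum. The cause of these shifts was not tested.

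Leaving out 1 library gave ranges for AREG of -0.52 to 1.03 at 2 h, -0.51 to 1.03 at 4 h and -0.28 to 1.27 at 8 h in Ishikawa cells, -0.18 to 0.39 from 4 h to 8 h in T-47D cells, and -0.38 to 1.13 for the difference between lines at 2 h. For BTC in T-47D cells they were -0.60 to 0.33 at 4 h and -0.81 to 0.14 at 8 h, and for EGF -0.52 to 0.23 at 2 h and -0.23 to 0.14 at 4 h in Ishikawa cells and -0.0749 to 0.0477 at 4 h in T-47D cells. The difference between lines for TGFA at 2 h ranged from -0.45 to -0.30, and its step from 2 h to 8 h ranged from 0.16 to 0.27 in Ishikawa cells and from -0.24 to -0.22 in T-47D cells. Called ligands numbered 1 to 2 at 2 h in Ishikawa cells (1 without the second 0 h library), 1 to 3 at 2 h in T-47D cells, and 0 to 2, 1 to 3 and 1 to 3 for the differences between lines at 2, 4 and 8 h. Pathway genes called numbered 11 to 26 at 8 h in Ishikawa cells, 8 to 13 at 2 h and 7 to 17 at 4 h in T-47D cells. The lowest were without the second 0 h library (11), the second 0 h or first 2 h library (8), and the first 4 h library (7; 10 without the second 0 h library). With 2 libraries per time and few counts for EREG and for AREG in Ishikawa cells, small changes of these genes were not detectable.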

Other observations

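The genes whose pattern was most like that of each ligand were taken from 11901 genes by Pearson's r over the 16 libraries, in log2 CPM centred on the vehicle mean of each line. The libraries of a line share their vehicle mean, so these values are a description. For TGFA they were THBS1 (r = 0.985), NRIP1 (0.979) and HIPK1 (0.971). For AREG they included SYN1 (0.913) and SNAPC4 (0.913), and for HBEGF they were OSBPL6 (0.957), KIAA1549 (0.928) and FAM53B (0.928). For BTC the values were lower, with ADAMTSL3 (0.813), CREBRF (0.813) and LMBRD1 (0.792), as they were for EGF, with COPE (0.760), AURKB (0.726) and TRIM46 (0.723).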
